A study of Mus musculus with 17 samples.

Results

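The genes described here are 37 genes of the ATF4 amino acid response, measured by bulk RNA sequencing of leukaemic mouse bone marrow. They were chosen by symbol from a list of ATF4 and its stress, amino acid synthesis, transport and tRNA synthetase targets, and all 37 were found among the 56305 genes of the count tables. The mice were C57BL/6 and carried acute myeloid leukaemia (AML) with the genotype Dnmt3aR878H/+;Npm1cA/+, which all groups shared. The 9 libraries labelled Mt1ko came from marrow that carried in addition a CRISPR-Cas9 knockdown of Mt1, a metallothionein. The other 8 libraries were labelled control and carried no Mt1 knockdown by their labels. The labels give neither the age of the mice, nor the guide, nor what the controls received. Each library is titled as a technical replicate, and the authors' summed table joined the libraries into the Mt1ko samples 4-6, 10-12 and 16-18 and the control samples 1-3, 7-9 and 14-15, named by their library numbers. Nothing states that these 6 samples came from separate animals, so a p-value here reflects the spread among the 6 sums, part of which may be technical.

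ATF4 is a transcription factor whose protein is made when the initiation factor eIF2 is phosphorylated, because ribosomes then pass the inhibitory upstream reading frame in its mRNA. The kinases that phosphorylate eIF2 sense missing amino acids, misfolded protein in the endoplasmic reticulum, low haem or viral RNA, and the programme they share is called the integrated stress response. ATF4 binds with C/EBP proteins at a composite element and turns on enzymes that make serine, glycine, asparagine and proline, transporters that bring amino acids in, and the synthetases that charge tRNAs. Growing leukaemic cells draw on the same enzymes to make protein and nucleotides. Much of the control of ATF4 lies in translation, so the level of its mRNA is not a measure of its protein.

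The composite element bound by ATF4 with C/EBP proteins was searched for in the promoters of the members. The members were listed as ATF4 targets. A higher share among them may thus follow from that choice, and the counts are a description only. The promoter table of RefSeq (build GRCm38.p6) gives 250 bases before to 50 bases after each gene start, and it matched 29 of the 37 members. The motif TGATGNAA was searched on both strands, the other strand reading TTNCATCA. It was found for 13 of the 29 members, and in 3.97% of all 32851 promoters of the same length. By gene, 4.51% of all 27025 genes in the table held it. A match is a run of letters and no binding was measured here. At least 1 element of each of 7 members that stand for the different roles is shown, though not every element found. Each is written along the strand of the gene with the motif in capitals. The first base of the motif is counted from the gene start of the promoter table, which can differ from the gene bounds given further on.
Trib3 (chr2:152344025-152344060, minus strand, element from 14): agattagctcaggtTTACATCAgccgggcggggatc
Chac1 (chr2:119351035-119351070, plus strand, element from -193): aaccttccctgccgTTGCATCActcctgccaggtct
Asns (chr6:7693211-7693246, minus strand, element from -23): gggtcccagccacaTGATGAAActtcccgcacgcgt
Slc7a11 (chr3:50443658-50443693, minus strand, element from -66): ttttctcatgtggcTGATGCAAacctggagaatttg
Slc7a11 (chr3:50443639-50443674, minus strand, element from -47): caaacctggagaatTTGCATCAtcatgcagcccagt
Slc1a4 (chr11:20332696-20332731, minus strand, element from -4): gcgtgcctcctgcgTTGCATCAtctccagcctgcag
Gars (chr6:55037957-55037992, plus strand, element from -30): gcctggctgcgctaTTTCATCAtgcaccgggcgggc
Aars (chr8:111033837-111033872, plus strand, element from 9): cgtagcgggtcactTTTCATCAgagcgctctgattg
The others with a match were Nupr1, Vldlr, Pycr1, Iars, Tars and Yars. In Phgdh, Psat1, Shmt2, Mthfd2 and Aldh18a1 these letters were not in the window. Of the members that stood low in the same samples, as described further on, 8 of the 21 with a promoter held the motif. Of the 8 others 5 held it, but these included Vldlr, which had 3 counts in all and was not tested. They also included Pycr1, which was scarce at 0.0483 to 1.04 CPM. The whole promoters of Asns and Slc7a11 are shown because the mRNAs of these genes ran in opposite directions across the samples, and both promoters hold the motif.
Asns (chr6:7693160-7693459, minus strand): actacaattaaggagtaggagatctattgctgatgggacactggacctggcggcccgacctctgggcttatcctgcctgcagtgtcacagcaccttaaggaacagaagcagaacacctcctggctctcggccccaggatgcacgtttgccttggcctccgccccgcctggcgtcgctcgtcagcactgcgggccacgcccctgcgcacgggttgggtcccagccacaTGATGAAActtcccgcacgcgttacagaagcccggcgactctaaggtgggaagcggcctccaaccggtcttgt
Slc7a11 (chr3:50443564-50443863, minus strand): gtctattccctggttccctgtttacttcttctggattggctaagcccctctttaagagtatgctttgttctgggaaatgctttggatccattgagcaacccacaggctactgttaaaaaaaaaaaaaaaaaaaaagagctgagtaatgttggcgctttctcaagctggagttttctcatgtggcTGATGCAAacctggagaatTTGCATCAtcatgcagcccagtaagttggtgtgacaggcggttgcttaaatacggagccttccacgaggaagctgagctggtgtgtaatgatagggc

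The level of the targeted gene was checked first. Mt1 had 172, 67.8 and 80.7 CPM in the Mt1ko samples 4-6, 10-12 and 16-18, against 353, 441 and 359 CPM in the control samples 1-3, 7-9 and 14-15. CPM is the count scaled to library size, with the size adjusted by its TMM factor (edgeR). The fit gave a log2 fold change of -1.85 (SE 0.34), with an edgeR quasi-likelihood adjusted p of 1.00. Library 6, which is labelled Mt1ko and is part of sample 4-6, went against its label with 317 CPM of Mt1. The other 8 libraries labelled Mt1ko held 49.3 to 95.8 CPM, and the control libraries 333 to 449 CPM. Library totals ran from 27124722 to 38645072 counts. Libraries 10, 11 and 12 stood apart: the share of mitochondrial ribosomal RNA was 21.9% to 30.2% in these 3 and 4.58% to 11.2% elsewhere, and 11548 to 13174 genes had a count in these 3 and 14823 to 17739 elsewhere.

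Between Mt1ko and control, no member of the ATF4 response passed the test. Atf4 itself averaged 286 ± 33.4 CPM in Mt1ko and 291 ± 80.0 CPM in control (SD, n = 3 each). Of the 36 members that passed the filter on low counts, 0 were called at an edgeR quasi-likelihood adjusted p under 0.05, as were 0% of all 16666 genes tested. At an unadjusted p under 0.05 the same test gave 0 members and 171 genes in all, and limma-voom and the DESeq2 Wald test also called 0 members. Vldlr, a lipoprotein receptor gene, did not pass the filter, with 3 counts in all 6 samples together. In 0 members did the Mt1ko samples all lie on one side of the control samples, where 7.1% of all tested genes had groups that did not overlap, 2.74% with Mt1ko above and 4.36% with Mt1ko below. The log2 fold change was below 0 in 25 of the 36 tested members and in 51.7% of all tested genes, with a median of -0.13 over the members and -0.01 over all tested genes. That direction rested on single samples: 9 of 36 were below 0 without control sample 1-3, and 12 of 36 without Mt1ko sample 10-12. The 95% interval stayed inside 1 log2 unit on either side of 0 for 18 of the 36 tested members.

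**Figure D1:**
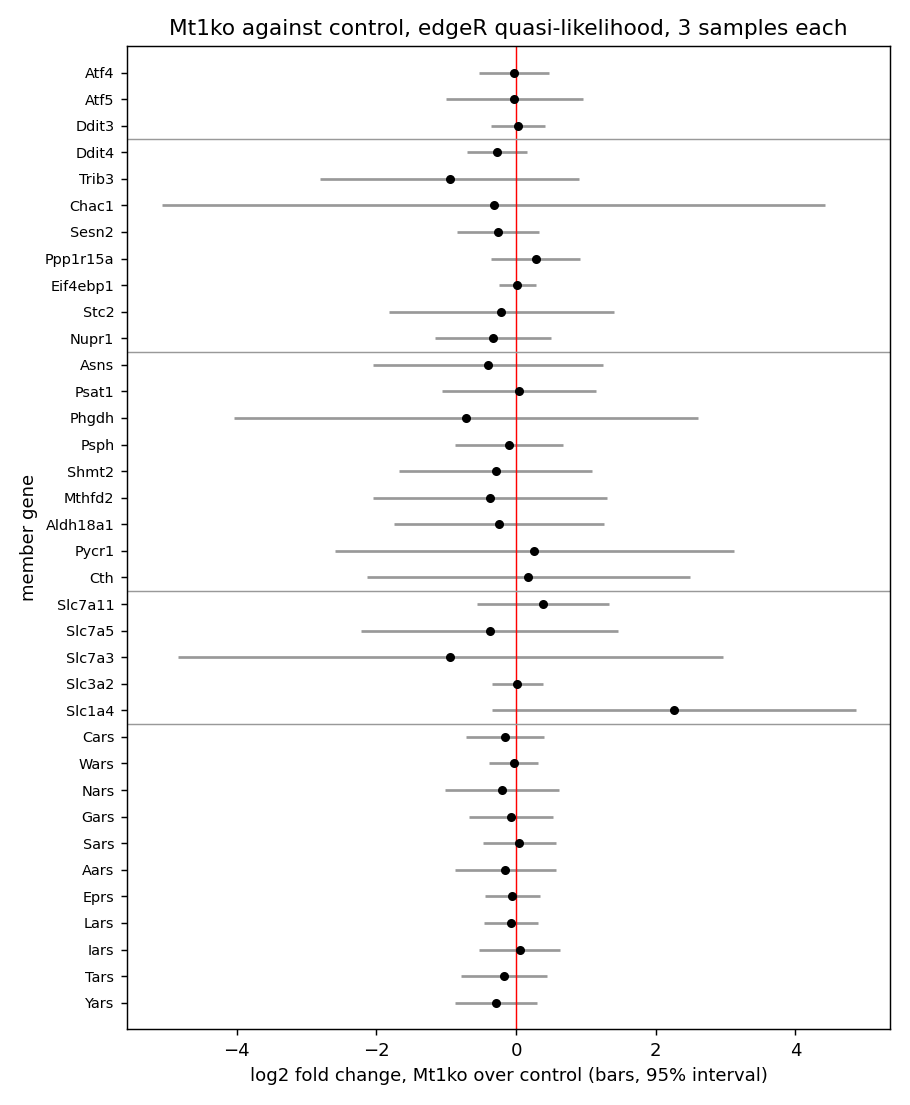
Log2 fold change of each of the 36 tested members, Mt1ko over control, with its 95% interval as a bar, in blocks by role. Every interval includes 0, and those of Chac1, Slc7a3, Phgdh and Pycr1 are the widest.

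The members showed a shared order of the 6 samples that crossed the groups. Mt1ko sample 10-12 and control sample 7-9 held less of most members than the 4 other samples. These 2 samples were singled out with earlier results of these data known, and they come from different groups, so their order is described with no mean over them and no test. Both lay below all 4 others in 27 of the 36 tested members, against 20.1% of all tested genes. Both lay above the 4 others in 1 member, Slc7a11, against 15.6% of all tested genes. Rank alone was counted, so near ties were among the 27. The lowest of the 4 others was 1.01 times the higher of the pair in Psph and 1.04 times in Eif4ebp1. In 8 members, each of the 4 other samples held at least 2 times the higher of the pair, against 3.17% of all tested genes. Control library 14 carried part of this: without it, 22 members lay below in both samples (16.3% of all tested genes), 5 by at least 2 times (2.26%), and 0 above. Slc7a11 also lost its place above without control library 8 or 9. The 8 members were Chac1, Stc2, Asns, Phgdh, Shmt2, Mthfd2, Aldh18a1 and Cth. In bulk RNA, fewer cells of a type and less RNA per cell cannot be told apart.

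**Figure D2:**
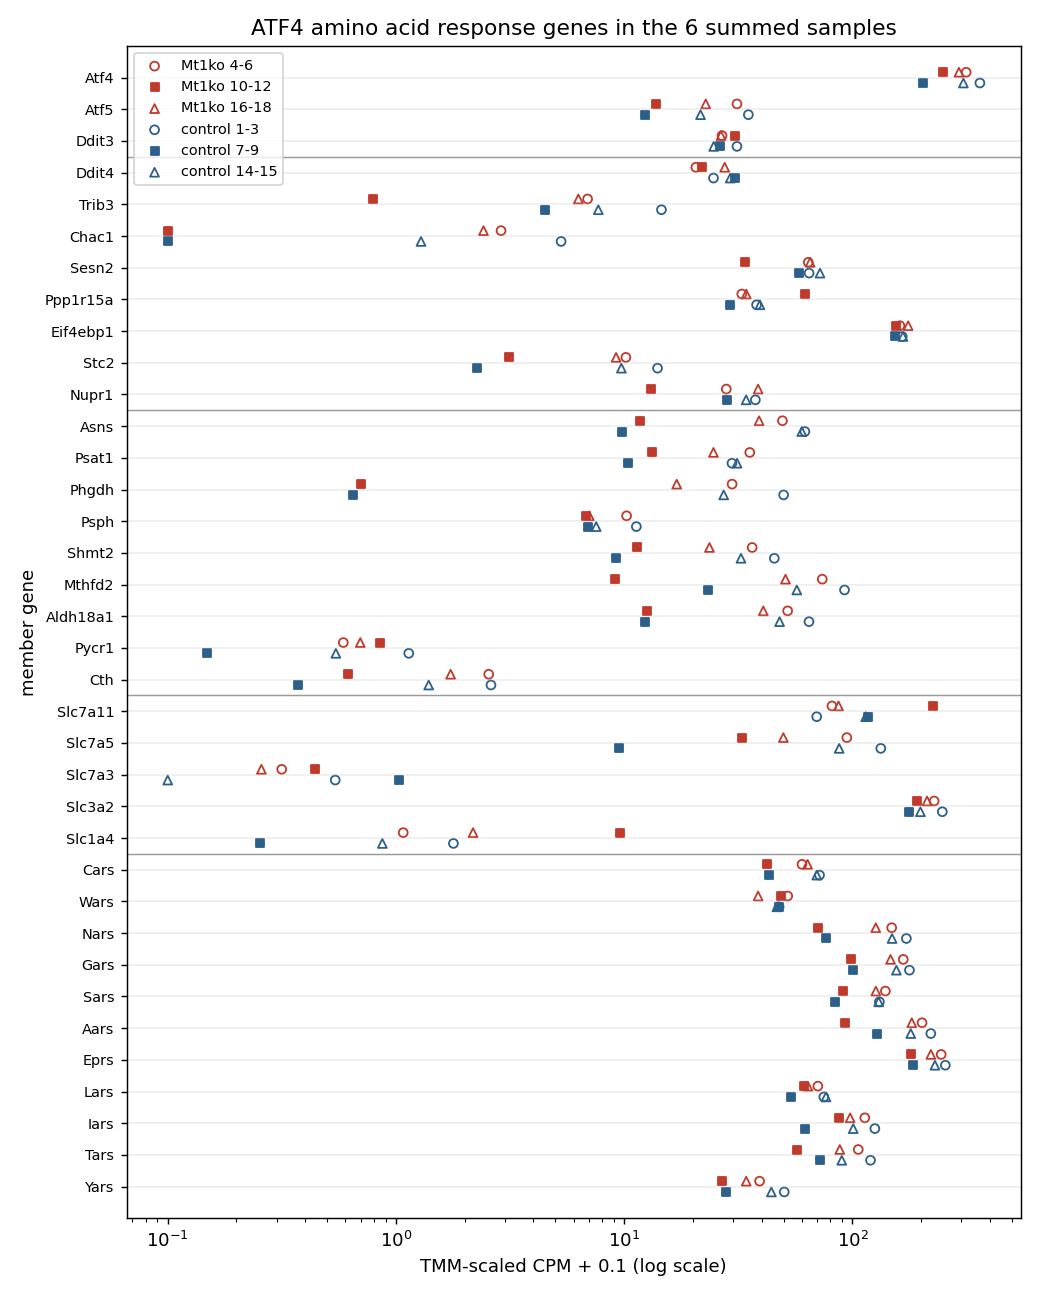
TMM-scaled CPM plus 0.1 on a log axis for the 36 tested members in blocks by role, Mt1ko samples in red above control samples in blue. Filled squares are samples 10-12 and 7-9, which lie left of the open symbols in 27 members, farthest in Phgdh and Chac1.

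Of the transcription factors of the list, Atf4 and Atf5 were lowest in 7-9 and 10-12, and Ddit3 differed little between samples. In each of the following sentences values are in the order 4-6, 10-12 and 16-18 for Mt1ko and 1-3, 7-9 and 14-15 for control. Atf4 (ENSMUSG00000042406; GRCm38 chromosome 15, 80255184 to 80257541, plus strand) had 315, 249 and 293 CPM in the Mt1ko samples, against 362, 204 and 306 CPM in the control samples. It had the highest level per length of all members, at 122 CPM per kilobase of exon over the 6 samples. The lowest samples were control 7-9 and Mt1ko 10-12, the groups overlapped, and Mt1ko over control gave a log2 fold change of -0.02 (SE 0.22, 95% interval -0.53 to 0.48). Atf5, a related factor that also responds to eIF2 phosphorylation, had 31.1, 13.7 and 22.7 CPM in the Mt1ko samples, against 34.9, 12.2 and 21.5 CPM in the control samples. Its spread was wider than that of Atf4, with the highest sample at 2.86 times the lowest. Ddit3, which encodes CHOP, a factor linked to death under prolonged stress, had 26.7, 30.5 and 26.5 CPM in the Mt1ko samples, against 31.1, 26.3 and 24.6 CPM in the control samples. No sample stood apart in Ddit3, since the highest was 1.27 times the lowest, and Mt1ko over control gave a log2 fold change of 0.03 (SE 0.17). For Atf5 the fit gave a log2 fold change of -0.02 (SE 0.42), and none of the 3 passed (edgeR adjusted p = 1.00 for each).

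Per kilobase of exon, mean levels over the 6 samples differed widely along the list. The length joins all annotated exons of a gene and can exceed that of a single mRNA. It was 18102 bases for Eprs and 13922 bases for Slc7a11, so the order depends on the annotation. After Atf4 came Eif4ebp1 at 74.1, Slc3a2 at 59.2 and Gars at 45.2 CPM per kilobase. Asns stood at 14.1, Phgdh at 8.36 and Slc7a11 at 8.31 CPM per kilobase, within the middle of the list. The scarcest tested members were Chac1 at 1.17, Slc1a4 at 0.644, Cth at 0.518, Pycr1 at 0.143 and Slc7a3 at 0.0917 CPM per kilobase.

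The enzymes of amino acid and one-carbon synthesis made up 6 of the 8 members with a gap of at least 2 times below the 4 other samples. Phgdh (ENSMUSG00000053398; GRCm38 chromosome 3, 98313170 to 98339990, minus strand), which makes the first committed step of serine synthesis, had 29.6, 0.604 and 16.9 CPM in the Mt1ko samples, against 49.8, 0.551 and 27.2 CPM in the control samples. It was nearly absent from samples 10-12 and 7-9, and the lowest of the 4 other samples held 28.0 times the higher of these. Psat1, which makes the next step, had 35.4, 13.2 and 24.5 CPM in the Mt1ko samples, against 29.6, 10.3 and 31.1 CPM in the control samples, while Psph, which ends the pathway, had 10.1, 6.69 and 6.93 CPM in the Mt1ko samples, against 11.2, 6.85 and 7.44 CPM in the control samples. The genes of serine synthesis thus differed in their spread, with the highest sample at 90.5, 3.44 and 1.67 times the lowest in Phgdh, Psat1 and Psph. Single libraries set these ratios in part: that of Psph was 5.00 without library 12, since sample 10-12 summed libraries 10, 11 and 12 at 0, 4.15 and 17.1 CPM of Psph, and that of Phgdh was 138 without library 9. Psph shares 452 exonic bases with Cct6a on the opposite strand, and the labels do not say whether the counting used strand. Cct6a matches the longest transcript of Psph over 255 bases at 100% identity and held 1363% of the counts of Psph. Whether reads of Cct6a were counted as Psph, and so shaped its spread, cannot be told. Each of 9 pseudogenes that resembles Phgdh over at least 200 bases at 95% identity held at most 0.294% of its counts.

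Mitochondrial enzymes of one-carbon and proline synthesis followed the same order. Shmt2, which splits serine into glycine and a one-carbon unit, had 36.2, 11.2 and 23.5 CPM in the Mt1ko samples, against 45.4, 9.08 and 32.4 CPM in the control samples. Mthfd2, which oxidises that unit in mitochondria, had 73.6, 8.98 and 50.8 CPM in the Mt1ko samples, against 92.2, 23.1 and 56.9 CPM in the control samples. Aldh18a1, the entry to proline synthesis from glutamate, had 51.9, 12.5 and 40.6 CPM in the Mt1ko samples, against 64.4, 12.2 and 47.8 CPM in the control samples. In all 3, samples 10-12 and 7-9 were lowest. The 4 other samples lay in the order 1-3, 4-6, 14-15 and 16-18 for Shmt2, Mthfd2 and Aldh18a1 alike. The gap of Shmt2 rested in part on library 10, since libraries 10, 11 and 12 held 0.0785, 20.8 and 11.2 CPM of it. Without library 10 the lowest of the 4 others held 1.42 times the higher of the pair. Asns (ENSMUSG00000029752; GRCm38 chromosome 6, 7675169 to 7693254, minus strand), which makes asparagine from aspartate and glutamine, had 49.2, 11.6 and 38.9 CPM in the Mt1ko samples, against 61.8, 9.69 and 59.9 CPM in the control samples. It was lowest in 7-9 and next lowest in 10-12, as were Phgdh and Psat1. Cth, which makes cysteine from cystathionine, was scarce, with 2.45, 0.516 and 1.64 CPM in the Mt1ko samples, against 2.51, 0.271 and 1.29 CPM in the control samples. Pycr1, which completes proline synthesis in mitochondria, was scarcer still, with 0.488, 0.755 and 0.598 CPM in the Mt1ko samples, against 1.04, 0.0483 and 0.445 CPM in the control samples, and sample 10-12 did not go with 7-9 in it.

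Between Mt1ko and control the synthesis genes overlapped and their intervals were wide. Phgdh had a log2 fold change of -0.72 (SE 1.43, 95% interval -4.04 to 2.60), and Asns had a log2 fold change of -0.40 (SE 0.71, 95% interval -2.04 to 1.25). Psat1 had a log2 fold change of 0.04 (SE 0.48) and Mthfd2 a log2 fold change of -0.37 (SE 0.72). None of these passed (edgeR adjusted p = 1.00 for each), and the intervals show that differences of several times in either direction could not be told from 0 at this spread. Summed over the 9 synthesis genes, the level was 289, 66.2 and 204 CPM in the Mt1ko samples, against 358, 72.1 and 265 CPM in the control samples.

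**Figure D3:**
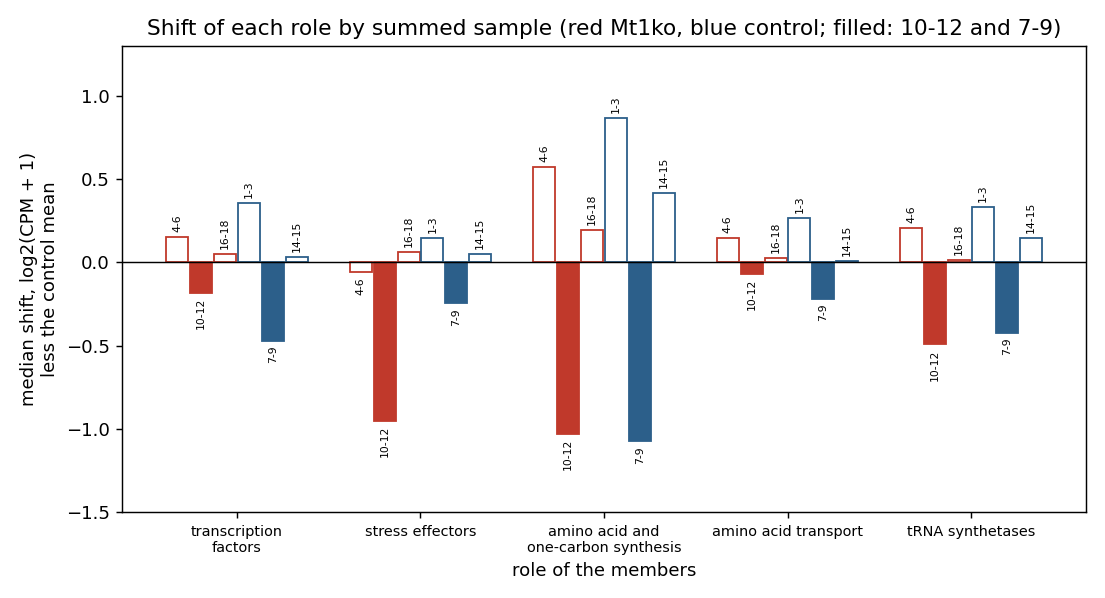
Median over the tested members of each role of log2(CPM + 1) less the control mean, 1 bar for each summed sample, red for Mt1ko and blue for control. The filled bars are 10-12 and 7-9, which stand at -1.03 and -1.07 in the synthesis genes and at -0.49 and -0.42 in the tRNA synthetases.

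The stress effectors were split. Chac1, which degrades glutathione, was counted 0 times in both 10-12 and 7-9, with 2.79, 0 and 2.32 CPM in the Mt1ko samples, against 5.19, 0 and 1.19 CPM in the control samples. A count of 0 was taken to allow at most 3 counts per sample, a limit that covers the sampling of reads alone. Libraries of the same sum could differ by more, as Psph did at 0, 4.15 and 17.1 CPM in libraries 10, 11 and 12. On that limit Chac1 was at least 31.5-fold lower in 10-12 and at least 41.0-fold lower in 7-9 than in the lowest other sample. That lowest sample was 14-15, in which library 14 held 2.20 CPM and library 15 held 0.123 CPM, so the bounds were 3.25-fold and 4.23-fold without library 14 and 58.3-fold and 75.9-fold without library 15. Trib3, a pseudokinase that restrains the response, had 6.81, 0.692 and 6.20 CPM in the Mt1ko samples, against 14.5, 4.40 and 7.60 CPM in the control samples. Its lowest sample was 10-12 by far, and 7-9 lay nearer the others. Stc2, a secreted glycoprotein of stressed cells, had 10.1, 3.03 and 9.11 CPM in the Mt1ko samples, against 13.9, 2.16 and 9.62 CPM in the control samples. Mt1ko over control gave a log2 fold change of -0.32 (SE 2.05) for Chac1 and a log2 fold change of -0.95 (SE 0.80) for Trib3 (edgeR adjusted p = 1.00 for both).

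Other stress genes did not set 10-12 and 7-9 apart together by much, though 10-12 alone stood apart in some. Eif4ebp1, which holds back cap-dependent translation, had 161, 155 and 175 CPM in the Mt1ko samples, against 165, 154 and 166 CPM in the control samples. Its whole range was 1.14 times from lowest to highest, the narrowest of the members. Sesn2, a leucine sensor that restrains mTORC1, had 63.9, 33.6 and 65.1 CPM in the Mt1ko samples, against 64.5, 58.1 and 72.0 CPM in the control samples. Only sample 10-12 was far from the rest in it, and Mt1ko over control gave a log2 fold change of -0.26 (SE 0.25). Ddit4, an mTORC1 inhibitor that also responds to hypoxia and glucocorticoid, had 20.5, 21.8 and 27.5 CPM in the Mt1ko samples, against 24.5, 30.5 and 29.0 CPM in the control samples, with a log2 fold change of -0.27 (SE 0.19) and no order of the kind seen above. Nupr1, a small chromatin protein induced by stress, had 27.9, 13.01 and 38.5 CPM in the Mt1ko samples, against 37.5, 28.2 and 34.1 CPM in the control samples, again lowest in 10-12. Ppp1r15a, the phosphatase subunit that reverses eIF2 phosphorylation, had 32.6, 62.0 and 34.2 CPM in the Mt1ko samples, against 37.9, 28.8 and 39.2 CPM in the control samples. It was highest in 10-12 and lowest in 7-9, so these 2 samples stood at opposite ends. Sesn2 and Ddit4 did not pass (edgeR adjusted p = 1.00 for both).

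The amino acid transporters went in different directions. Slc7a5 (ENSMUSG00000040010; GRCm38 chromosome 8, 121881150 to 121907694, minus strand), the carrier of large neutral amino acids such as leucine, had 94.4, 32.8 and 49.7 CPM in the Mt1ko samples, against 133, 9.43 and 87.4 CPM in the control samples. Its partner chain Slc3a2, which also pairs with other carriers, had 228, 191 and 212 CPM in the Mt1ko samples, against 247, 176 and 198 CPM in the control samples. The carrier thus spanned 14.1 times and its partner 1.40 times between the lowest and highest samples, although both were lowest in 7-9. Slc7a11 (ENSMUSG00000027737; GRCm38 chromosome 3, 49892526 to 50443614, minus strand), the cystine importer that is also a known target of NRF2, had 81.2, 225 and 86.8 CPM in the Mt1ko samples, against 69.6, 117 and 114 CPM in the control samples. It was highest in 10-12 and next highest in 7-9, with 14-15 close behind, whereas Asns was lowest in 10-12 and 7-9. The longest annotated transcript of Slc7a11 holds 373 bases that match the alpha-tubulin gene Tuba1b at 96.2% identity, and the labels do not say how the counting shared such reads. Slc1a4, a carrier of alanine, serine and cysteine, was scarce, with 0.976, 9.50 and 2.08 CPM in the Mt1ko samples, against 1.69, 0.155 and 0.772 CPM in the control samples. Its high value was confined to 10-12 among the 6 samples, and there to libraries 11 and 12, with 15.1 and 12.7 CPM against 0 in library 10. Slc7a3, a carrier of cationic amino acids, had 0.216, 0.340 and 0.157 CPM in the Mt1ko samples, against 0.442, 0.928 and 0 CPM in the control samples.

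None of these transporters passed between Mt1ko and control (edgeR adjusted p = 1.00 for each). Slc1a4 had a log2 fold change of 2.26 (SE 1.12, 95% interval -0.34 to 4.87), with the smallest unadjusted p of the members in the edgeR fit (0.0798). Without sample 10-12 its log2 fold change was 0.81. Slc7a11 had a log2 fold change of 0.38 (SE 0.41), Slc7a5 a log2 fold change of -0.38 (SE 0.79) and Slc3a2 a log2 fold change of 0.02 (SE 0.16).

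The tRNA synthetases followed the order of the synthesis genes by a smaller step. Of the 11 listed, 10 were lower in both 10-12 and 7-9 than in all the other samples. Aars (ENSMUSG00000031960; GRCm38 chromosome 8, 111033144 to 111057664, plus strand), which charges alanine tRNA, had 202, 92.6 and 182 CPM in the Mt1ko samples, against 220.4, 128 and 180.0 CPM in the control samples. It shares 1326 exonic bases with Exosc6 on the same strand, and the counts given to Exosc6 came to 0.0% of those of Aars. Whether reads of Exosc6 were counted as Aars cannot be told. Gars, for glycine, had 167, 98.7 and 147 CPM in the Mt1ko samples, against 178, 101 and 156 CPM in the control samples, and Nars, for asparagine, had 148, 70.8 and 126 CPM in the Mt1ko samples, against 172, 76.6 and 149 CPM in the control samples. In Nars the lowest of the other samples was 1.65 times the higher of the pair, the widest gap of the 11. Sars, for serine, had 139, 90.8 and 127 CPM in the Mt1ko samples, against 131, 84.0 and 130.2 CPM in the control samples, and Eprs, for glutamate and proline, had 245, 180.4 and 220.5 CPM in the Mt1ko samples, against 255, 184 and 229.7 CPM in the control samples. Iars, for isoleucine, had 113, 87.3 and 97.6 CPM in the Mt1ko samples, against 125, 61.6 and 101 CPM in the control samples, and Tars, for threonine, had 106, 56.9 and 87.9 CPM in the Mt1ko samples, against 119.9, 72.0 and 89.7 CPM in the control samples. Both were lowest in this pair of samples, Iars in 7-9 and Tars in 10-12. Cars, for cysteine, had 60.0, 42.3 and 63.5 CPM in the Mt1ko samples, against 71.6, 43.0 and 69.7 CPM in the control samples, and Yars, for tyrosine, had 39.1, 26.7 and 34.1 CPM in the Mt1ko samples, against 50.2, 27.7 and 44.0 CPM in the control samples. Lars, for leucine, had 70.4, 61.2 and 63.7 CPM in the Mt1ko samples, against 74.8, 53.7 and 76.5 CPM in the control samples, where 10-12 lay just under 16-18. Wars, for tryptophan, which is also an interferon-responsive gene, was the exception, with 51.9, 48.6 and 38.5 CPM in the Mt1ko samples, against 47.6, 47.7 and 46.6 CPM in the control samples. Mt1ko over control gave a log2 fold change of -0.15 (SE 0.31) for Aars and a log2 fold change of -0.07 (SE 0.26) for Gars (edgeR adjusted p = 1.00 for both). The fits of 10 of the 11 synthetases had 95% intervals within 1 log2 unit of 0.

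The single libraries showed how even these differences were within a summed sample. All 6 libraries of 10-12 and 7-9 lay below all 11 others in 8 members, against 2.89% of all tested genes, and above all 11 others in 0 members, against 0.684%. The 8 were Atf4, Chac1, Stc2, Asns, Phgdh, Mthfd2, Aldh18a1 and Nars. Phgdh had 0 to 1.59 CPM in the 6 libraries, against 11.4 to 60.5 CPM in the 11 others. Asns had 1.01 to 20.1 CPM in the 6 and 35.3 to 80.4 CPM in the 11. Atf4 parted them narrowly, with 185 to 278 CPM in the 6 and 282 to 428 CPM in the 11. The libraries of control sample 14-15 differed from each other: library 15 held 12.0 CPM of Phgdh, 38.6 CPM of Asns and 185 CPM of Slc7a11, and library 14 held 41.7, 80.4 and 48.9 CPM. Library 15 was thus on the side of 10-12 and 7-9 within its own sample in all 3 genes.

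**Figure D4:**
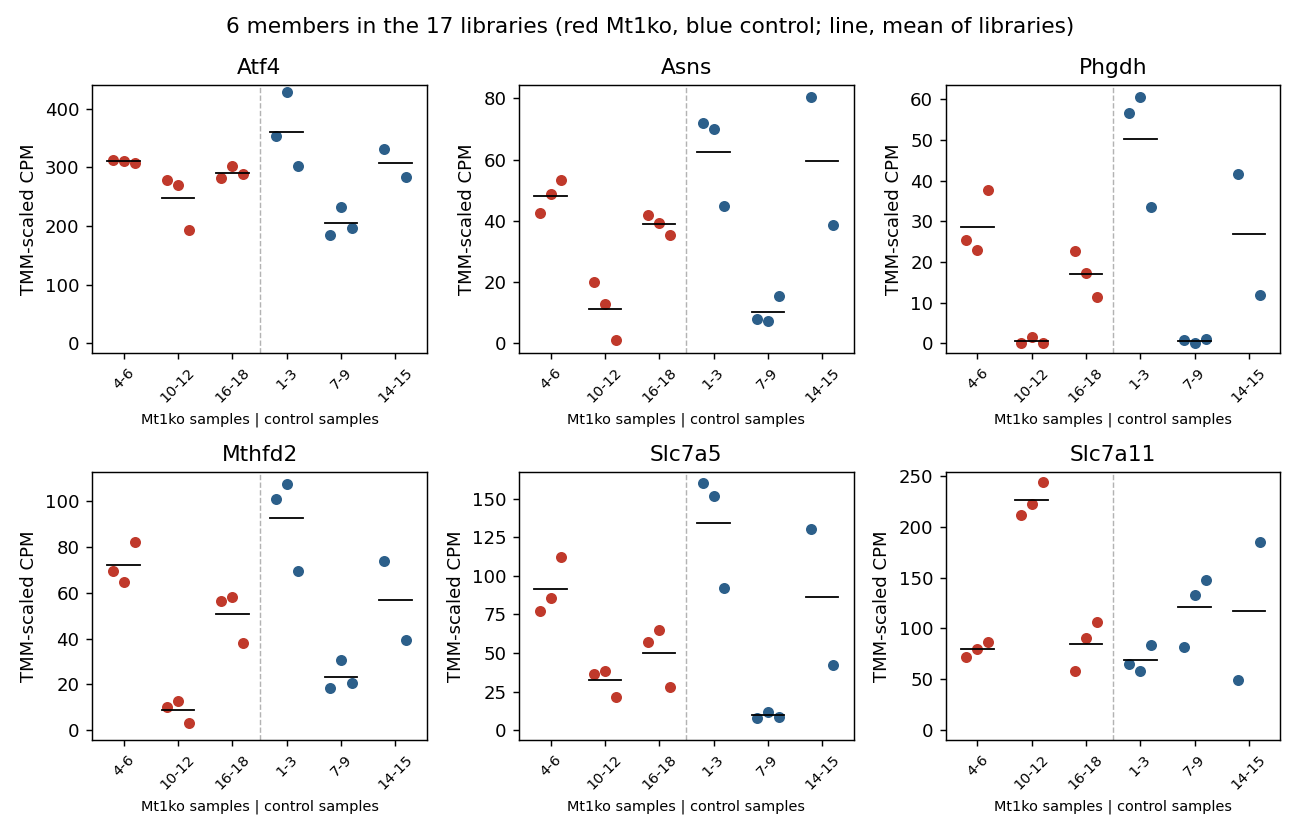
TMM-scaled CPM of Atf4, Asns, Phgdh, Mthfd2, Slc7a5 and Slc7a11 in each of the 17 libraries, by summed sample, Mt1ko left of control, with the mean of the libraries as a line. Libraries of 10-12 and 7-9 lie below all others in Atf4, Asns, Phgdh and Mthfd2, and libraries 14 and 15 lie apart within sample 14-15.

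The libraries carried 3 second index sequences, which were taken as a possible batch. With the first, the median shift of the members averaged 0.23 in 3 Mt1ko libraries and 0.07 in 5 control libraries, in log2(CPM + 1) less the control mean. With the second it averaged -0.39 in 4 Mt1ko libraries and -0.10 in 3 control libraries. The sign of the difference was thus not shared between the index sequences, and the second held libraries 10 to 12. The third was carried by 2 Mt1ko libraries and no control library, so it gives no comparison. Sample 7-9 drew on the first and the second, since libraries 7 and 8 carried the first index and library 9 the second, and Phgdh was at 0.697, 0 and 1.05 CPM in libraries 7, 8 and 9.

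Markers of other cells moved with the same samples, and their part in the order of the members was not tested. Of 10 monocyte and macrophage markers all 10 averaged at least 10 CPM, and their summed level was 10905, 8347 and 9715 CPM in the Mt1ko samples, against 9126, 10249.7 and 8943 CPM in the control samples. Within that list Chil3, a chitinase-like protein, had 1904, 63.0 and 1468 CPM in the Mt1ko samples, against 1624, 49.2 and 1711 CPM in the control samples, and Mrc1, the mannose receptor, had 259, 19.9 and 235 CPM in the Mt1ko samples, against 305, 12.2 and 164 CPM in the control samples. Of the 10 genes of the list, 5 lay below the other samples in both 10-12 and 7-9 and 2 lay above, Lyz2, the macrophage lysozyme, and Cd14, a co-receptor for lipopolysaccharide. Lyz2 had 3111, 4589 and 2988 CPM in the Mt1ko samples, against 2238, 5644 and 2554 CPM in the control samples. Of the 10 neutrophil markers, 5 averaged under 1 CPM and Camp was at 0 throughout. In both 10-12 and 7-9, 3 of them lay below the other samples and 0 lay above. Mpo was highest in 7-9, at 5.84 CPM. The list summed to 155, 18.5 and 85.6 CPM in the Mt1ko samples, against 137, 33.3 and 176 CPM in the control samples. Of the 10 mast cell and basophil markers, 6 lay above the other samples in both 10-12 and 7-9 and 0 lay below. The 4 that averaged under 1 CPM included Prss34, at 0 throughout. The sum of this list ran the other way from the neutrophil sum. It was 309, 3990.3 and 129 CPM in the Mt1ko samples, against 177, 636 and 494 CPM in the control samples. Megakaryocyte markers summed to 313, 464 and 379 CPM in the Mt1ko samples and 269, 245 and 260.4 CPM in the control samples, with Gp9 and Gp1bb at 0. Within that list Pf4 and Ppbp lay below the 4 other samples in both 10-12 and 7-9, and Itga2b and Cd9 lay above. Erythroid markers summed to 73.0, 105 and 76.0 CPM in Mt1ko and 69.3, 136 and 50.2 CPM in control. Most of that sum was Tfrc, the transferrin receptor, with 53.8, 90.5 and 57.3 CPM in the Mt1ko samples, against 53.1, 91.7 and 46.8 CPM in the control samples, while the haemoglobin gene Hba-a2 had 8.31, 1.89 and 8.51 CPM in the Mt1ko samples, against 7.25, 12.1 and 1.54 CPM in the control samples. B cell and plasma cell, and T and NK cell, lists stayed at or under 6.62 and 2.96 CPM in every sample, and stroma and endothelium at 15.3 to 91.2 CPM. Of the 91.2 CPM in 10-12, Pecam1, an adhesion molecule also found on platelets and leukocytes, made up 89.0 CPM.

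Control library 7 held 0.697 CPM of Phgdh and 8.00 CPM of Asns, while its mast cell and basophil sum was 25.0 CPM and mitochondrial ribosomal RNA took 6.03% of its counts. Both of the last values lay within the range of the 11 libraries outside 10-12 and 7-9, where the mast cell sum ran from 6.28 to 1016 CPM and the mitochondrial share from 4.58% to 6.31%. Its neutrophil sum, at 18.0 CPM, lay below the 66.1 to 236 CPM of those 11 libraries. Chil3 and Mrc1 were low in library 7, at 22.02 and 19.1 CPM. Control library 9 held 1.05 CPM of Phgdh and 15.3 CPM of Asns. Its neutrophil sum of 71.4 CPM lay inside the range of those 11 libraries, and its mast cell sum of 1613 CPM lay above. Control library 8 held 0 CPM of Phgdh and 7.15 CPM of Asns, with a mast cell sum of 526 CPM. Its neutrophil sum lay below the range, and its mitochondrial share of 8.77% above. The part of these sums and shares in the order of the members was not tested. Control library 15, lower in Phgdh and Asns than library 14, had a mast cell sum of 1016 CPM, against 6.28 CPM in library 14.

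Genes around the response, from lists of its regulators and further targets, gave mixed values in these samples. None passed between Mt1ko and control (smallest edgeR adjusted p = 1.00 in each list). Of 15 tested genes of eIF2 signalling, 5 were below the 4 other samples in both 10-12 and 7-9 and 0 were above. One of them was Eif2ak3, which encodes the endoplasmic reticulum kinase PERK, with 54.7, 14.8 and 52.8 CPM in the Mt1ko samples, against 66.2, 30.7 and 53.7 CPM in the control samples. Eif2ak4, which encodes GCN2, the kinase that senses uncharged tRNA, had 21.1, 22.3 and 18.6 CPM in the Mt1ko samples, against 21.4, 19.4 and 19.6 CPM in the control samples and showed no such order. Of 10 tested partners and related factors, 3 were below and 2 above. Cebpg, a known partner of ATF4, had 47.7, 39.7 and 38.1 CPM in the Mt1ko samples, against 47.7, 35.5 and 41.9 CPM in the control samples, and Atf3, itself a target, had 23.3, 33.6 and 21.4 CPM in the Mt1ko samples, against 28.0, 38.5 and 20.9 CPM in the control samples, higher in both samples.

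Of 29 tested further targets, 11 were below and 6 above in both samples. Slc7a1, a carrier of arginine, had 65.7, 16.2 and 42.1 CPM in the Mt1ko samples, against 75.3, 13.9 and 60.9 CPM in the control samples. Gpt2, a mitochondrial alanine transaminase, had 22.1, 0.101 and 15.7 CPM in the Mt1ko samples, against 22.3, 4.86 and 16.4 CPM in the control samples. The 6 above were Slc38a1, Glul, Gadd45b, Gdf15, Sqstm1 and Map1lc3b. Sqstm1 is an autophagy receptor and also a target of NRF2. It had 253, 622 and 288 CPM in the Mt1ko samples, against 264, 404 and 283 CPM in the control samples. Slc38a1 had 2.94, 30.9 and 2.40 CPM in the Mt1ko samples, against 3.94, 5.81 and 3.46 CPM in the control samples. The cause of these values was not tested. The cytosolic and the mitochondrial synthetases outside the members gave different counts. Of 8 tested cytosolic synthetases that are not members, 6 were below in both samples and 0 above, among them Vars, for valine, with 52.4, 19.9 and 43.0 CPM in the Mt1ko samples, against 63.2, 25.3 and 54.8 CPM in the control samples. Of 17 tested mitochondrial synthetases 2 were below and 5 above, beside the 20.1% below and 15.6% above of all tested genes. These counts were not tested against each other.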

How the data were processed

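Total RNA from bone marrow was sequenced as 17 libraries, made with a stranded Pico kit per the labels' protocols. The authors deposited raw counts per gene for the 17 libraries and for 6 sums of them, both used as deposited. The submitters' processing notes name Trimmomatic 0.35, RSEM 1.3.3 and the builds GRCm38 and mm10, with no settings. Each deposited sum equalled the sum of its library counts in every gene. Library totals are 27124722 to 38645072 counts, and the common biological coefficient of variation between sums was 0.67.

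The 6 sums (3 Mt1ko, 3 control) were compared with edgeR 4.0.16 (R 4.3.3) by quasi-likelihood tests after filterByExpr and TMM scaling, with Benjamini-Hochberg adjustment over all 16666 tested genes. Mean levels per kilobase use the joined length of all exons of a gene in GENCODE (GRCm38). Shifts are in log2(CPM + 1). DESeq2 1.42.0, limma 3.58.1 and other units, scalings and left-out samples were alternatives, and the code was tested on simulated data. The members, lists and the pair of samples were chosen with earlier results of these data known. Fold changes with errors are given for 16 core members and, of the 4 members with the largest ratio of highest to lowest sample at a mean of at least 1 CPM, the 1 not among them (Slc1a4). Ddit3 has another identifier, listed at 0 and not used. Of the promoter elements found and the markers listed, 1 each is not reported here.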

Additional observations from a re-analysis of the deposited data

Results flagged for a closer look

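Within each group the library values of every tested member were examined for a library far from the others. Of 72 groups of values, 5 held such a library. Chance alone gives about 1 in 20 for independent libraries. Libraries of the same sum are not independent, so no conclusion is drawn from that rate. Atf4 was lowest in Mt1ko library 12 at 193 CPM, with the next Mt1ko library at 270.3 CPM. Ddit3 was highest in Mt1ko library 10 at 51.3 CPM, with the next at 30.5 CPM, and Ddit4 was lowest in the same library at 2.20 CPM, with the next at 18.4 CPM. Pycr1 was highest in Mt1ko library 11 at 1.96 CPM, with the next at 0.885 CPM, and among controls in library 3 at 2.09 CPM, with the next at 0.869 CPM. Libraries 10, 11 and 12 all belong to Mt1ko sample 10-12, whose high share of mitochondrial ribosomal RNA is given above, and its part in these values was not tested. Control groups of 8 libraries and Mt1ko groups of 9 were examined.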

How the results depend on the processing

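No paired analysis was possible because the Mt1ko and control libraries share no replicate numbers. No member was called under any of the 14 alternatives. Over all genes, 1 gene was called by DESeq2, with 17 libraries entered singly, with the summed sample as a random effect and without library 6, each time Mt1. Leaving out 1 sample at a time moved the count of members lower in Mt1ko between 9 and 31 and their median log2 fold change between -0.33 and 0.15. The 27 members low in both 10-12 and 7-9 became 25 to 28 under other scalings, without mitochondrial genes or without library 6, 22 to 28 with 1 of the 17 libraries left out, and 8 when all 6 libraries had to lie below all 11 others. These last settings were chosen after seeing the data. Of 238 values for 17 members, 36 changed sign, none of them past the threshold on either side, and the cause was not tested. Log2 fold changes with the other sign under limma-voom were 0.014 for Atf4, 0.085 for Atf5, 0.68 for Chac1, 0.056 for Phgdh and 0.27 for Slc7a5. With the random effect they were 0.020 for Atf4, -0.038 for Ddit3, 0.080 for Atf5, 0.57 for Chac1 and 0.34 for Slc7a5, and without library 6 they were -0.013 for Ddit3 and -0.0062 for Psat1. With 1 sample left out the range was -0.22 to 0.17 for Atf4, -0.041 to 0.13 for Ddit3, -0.33 to 0.42 for Atf5, -0.91 to 1.53 for Chac1, -0.87 to 0.0067 for Asns, -0.33 to 0.34 for Psat1 and -1.56 to 0.19 for Phgdh. It was -0.94 to 0.16 for Mthfd2, -0.25 to 0.63 for Slc7a11, -0.90 to 0.29 for Slc7a5, -0.080 to 0.17 for Slc3a2, -0.36 to 0.12 for Aars and -0.28 to 0.12 for Gars. Trib3, Sesn2, Ddit4 and Slc1a4 kept their sign in all 14. The bound on Chac1, counted 0 times in 10-12 and 7-9, rests on depth and on library 14. It leaves out differences between libraries of the same sum.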
